A study of Homo sapiens with 2 samples.

Results

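The genes described here encode 10 secreted growth factors of receptor tyrosine kinases, namely epiregulin (EREG), amphiregulin (AREG), heparin-binding EGF-like growth factor (HBEGF), TGF-alpha (TGFA) and neuregulin 1 (NRG1) of the EGF family, the platelet-derived growth factors PDGFA, PDGFB, PDGFC and PDGFD, and hepatocyte growth factor (HGF). They were picked by symbol, with earlier results of these data known, and all 10 were found among the 58735 genes of the deposited table. The study compared 2 RNA-seq libraries of U87MG, an established human glioblastoma cell line kept for a week under stem cell conditions and labelled as glioma spheres. One library came from cells infected with the pGIPZ-CTRL lentivirus and the other from cells infected with TRIP13-shRNA lentivirus, and both cell stocks were selected with puromycin as stable clones. Whether each stock was a single clone or a pool is not given in the sources used here.

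With 1 library for each group there is no replicate check and no p-value, and every value describes these libraries rather than the conditions. Whole reads could be recovered from the deposited values, 18871063 for the control library and 19903836 for the library labelled TRIP13 shRNA. TRIP13, the targeted ATPase gene, had 11.9 FPKM in the control library and 23.1 FPKM in the library labelled TRIP13 shRNA. This order goes against the label. All directions below are therefore directions between libraries as labelled. The mesenchymal and glial marker VIM stood at 427 FPKM in the library labelled TRIP13 shRNA and at 442 FPKM in the other. Here and below, a pair of values gives the library labelled TRIP13 shRNA first and the control library second. Of 8 glioma and astroglial markers 5 had a mean of at least 1 FPKM, and all 5 had lower values in the library labelled TRIP13 shRNA. Of all protein-coding genes with such a mean, 39.6% had lower values there. The differences of VIM and CD44 were small. CHI3L1 stood far apart at 57.8 and 669.6 FPKM, SLC1A3 had 7.91 and 10.6 FPKM, NES 2.21 and 5.23 FPKM and CD44 111.8 and 114.8 FPKM. GFAP was below 1 FPKM in both libraries, with fewer reads in the library labelled TRIP13 shRNA (28 and 92 reads, 0.119 and 0.392 FPKM). AQP4 (0 reads in both) and S100B (4 and 0 reads) were at or near 0. Of the stem cell markers OLIG2 had 22 and 177 reads and PAX6 330 and 341 reads, while SOX2 (1 and 2 reads), PROM1 (1 and 5 reads) and MSI1 (0 reads in both) were at or near 0. The part of these markers in the results was not tested.

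Ligands of the EGF family are made as membrane-anchored precursors, and proteases of the ADAM family release them. Free EGF-like ligands bind receptors of the ERBB family, PDGF dimers bind the PDGF receptors alpha and beta, and HGF binds MET, and all these receptors signal through RAS and ERK as well as PI3K. In glioma these ligands are known for autocrine loops, in which a tumour cell makes both a ligand and its receptor.

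Levels are given as FPKM, fragments relative to the length of the merged exons and to 1 total that both libraries share. Between genes they can be compared only roughly, since merged exons can be longer than the transcripts that were expressed. Ratios are FPKM ratios of the library labelled TRIP13 shRNA to the control library with 95% exact (Clopper-Pearson) intervals. The intervals come from the split of the recovered reads and cover counting error only, since the reads carry no molecular identifiers and several can stem from 1 molecule. The log2 ratio is log2 of (FPKM + 1) over (FPKM + 1), which understates the differences of weakly expressed genes. A gene is called at least 2-fold higher or lower when its log2 ratio is 1 or more, or -1 or less. The comparison covered the 10671 protein-coding genes whose mean FPKM over both libraries reached 1.

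Of the 10 ligand genes, 7 passed this filter, and 6 of the 7 had lower levels in the library labelled TRIP13 shRNA. Among all genes compared, 39.6% had lower levels there. EREG and HGF passed the 2-fold rule downward, that is, toward lower levels in that library, and 0 ligand genes passed it upward. Among all genes compared, 4.19% passed it downward and 2.17% upward. The median log2 ratio of the 7 genes was -0.61, beside 0.12 over all 10671 genes, and the median over all 10 ligand genes was -0.37. Counting intervals lay below 1 for 6 of the 7 genes and above 1 for PDGFC, while they lay below 1 for 29.5% and above 1 for 49.0% of all genes compared. When each library was divided by its own total, all ratios became lower, since the library labelled TRIP13 shRNA had more reads. Only the interval of PDGFC could thus have crossed 1, and it stayed above 1 at 1.28 to 1.52. Of the 7 intervals that of TGFA then lay nearest to 1, at 0.669 to 0.925. AREG, PDGFB and PDGFD had at most 2 reads in either library.

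**Figure D1:**
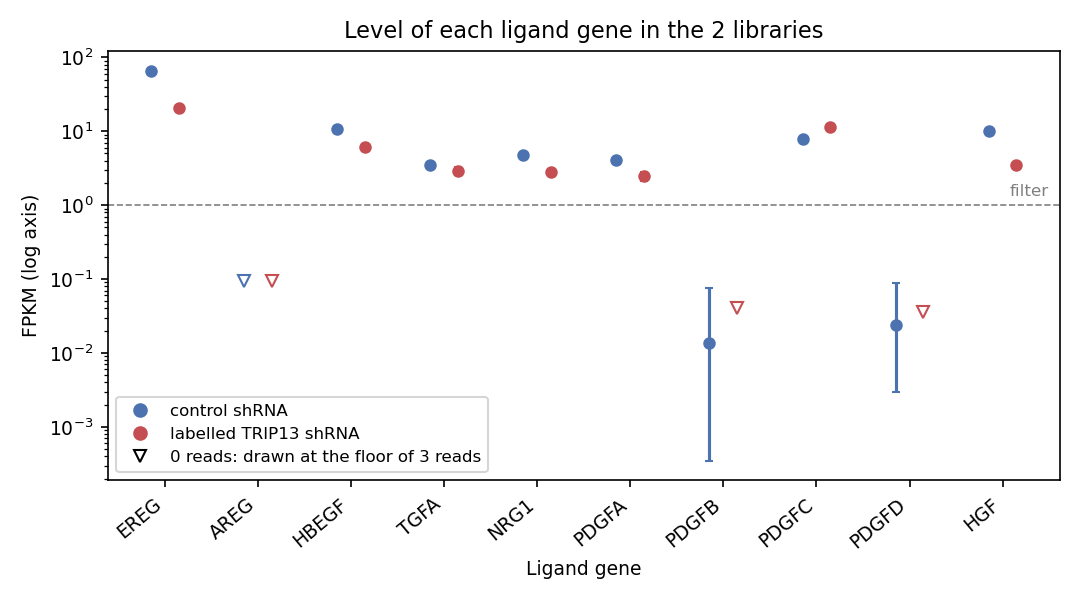
FPKM of the 10 ligand genes on a log axis in the control library (blue) and in the library labelled TRIP13 shRNA (red), 1 library each. Bars are 95% Poisson counting intervals, open triangles mark genes with 0 reads at the level of 3 reads, and the dashed line is the filter of 1 FPKM. EREG is the highest point in both libraries, and PDGFC is the 1 gene above the filter whose red point lies above its blue point.

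EREG, a ligand of EGFR and ERBB4, was the most abundant of the 10 genes in both libraries. It is the gene ENSG00000124882 on the plus strand of chromosome 4 (hg38, 74365143 to 74388751). Its level was 65.3 FPKM in the control library (7236 reads) but 20.4 FPKM in the library labelled TRIP13 shRNA (2260 reads). EREG was thus 3.20-fold higher in the control library (3.05 to 3.36), with a log2 ratio of -1.63. A share of 1.30% of the genes compared had a lower log2 ratio.

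AREG, the neighbouring ligand of EGFR (ENSG00000109321, chromosome 4, 74445134 to 74455009, plus strand), had 0 reads in both libraries. At this depth 0 reads allow a level of up to 0.0939 FPKM, the value of 3 reads. Both genes lie on the same strand, and the start of AREG lies 80.0 kb beyond that of EREG. So the most abundant ligand gene of the set and the 1 ligand gene without a read in either library are neighbours.

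The stretches before the annotated starts of both genes are shown because these neighbouring relatives stood at opposite ends of the levels. They come from RefSeq windows of build GRCh38.p14, plus strand, and end at the base before the first GENCODE exon. The 248 bases for EREG are chr4:74364895-74365142 and those for AREG are chr4:74444886-74445133. Capitals mark matches to TATAAA, the core of a TATA box, and to TGACGTCA, the cyclic AMP response element.
EREG: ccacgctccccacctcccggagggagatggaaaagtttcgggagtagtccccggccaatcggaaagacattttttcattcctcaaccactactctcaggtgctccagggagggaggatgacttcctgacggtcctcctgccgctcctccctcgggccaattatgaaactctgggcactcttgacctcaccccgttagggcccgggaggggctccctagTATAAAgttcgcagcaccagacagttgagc
AREG: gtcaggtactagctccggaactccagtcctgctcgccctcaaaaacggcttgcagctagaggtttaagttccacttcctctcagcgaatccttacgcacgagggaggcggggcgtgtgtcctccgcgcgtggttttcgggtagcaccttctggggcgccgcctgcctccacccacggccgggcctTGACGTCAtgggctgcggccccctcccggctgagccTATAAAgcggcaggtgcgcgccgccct
A match to TATAAA begins 30 bases before the start of EREG and 27 bases before that of AREG. A match to TGACGTCA begins 63 bases before the start of AREG, and the EREG stretch holds none. The AP-1 element TGANTCA was also searched and matched neither stretch. Both strands were searched, and no matches overlapped. Over 35116 RefSeq promoter windows of 250 bases, 10.7% held TATAAA, 1.65% TGACGTCA and 6.57% TGANTCA. A match is a stretch of letters, not a shown binding site. Windows were found for 7 of the 10 genes, and none was found for PDGFB, PDGFC and NRG1. The windows of HBEGF, TGFA, PDGFA, PDGFD and HGF held no match to any of these elements.

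EREG sits in a group of EGF-family genes next to the CXC chemokine genes on chromosome 4. Within 650 kb on either side of its start, a distance chosen after the values were seen, 15 protein-coding genes are annotated and 7 of them passed the filter. Besides EREG, 5 of the other 6 passed the 2-fold rule downward, beside 4.19% of all genes compared. These 5 were the chemokine genes CXCL8, CXCL1, CXCL6, CXCL3 and CXCL2, which attract neutrophils. CXCL2, the nearest of them to EREG, stood at 19.7 and 54.4 FPKM, 2.77-fold higher in the control library (2.51 to 3.05). CXCL3 stood at 2.19 and 6.12 FPKM, 2.80-fold higher in the control library (2.20 to 3.58). CXCL6 had 6 and 165 reads and CXCL1 had 19 and 143 reads. CXCL1, CXCL2 and CXCL3 are close paralogs, and the authors' counting could have split reads between them.

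MTHFD2L, a mitochondrial folate enzyme gene between CXCL2 and EREG, had a smaller difference, at 3.22 and 4.46 FPKM with a log2 ratio of -0.37. EPGN (epigen), the EGF-family gene on the other side of EREG from AREG, had 3 and 19 reads, a ratio of 0.158 (0.0299 to 0.536). BTC (betacellulin), the last EGF-family gene of the stretch, went the other way with 49 and 13 reads, a ratio of 3.77 (2.01 to 7.57). The EGF-family genes of this stretch therefore did not share 1 direction.

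**Figure D2:**
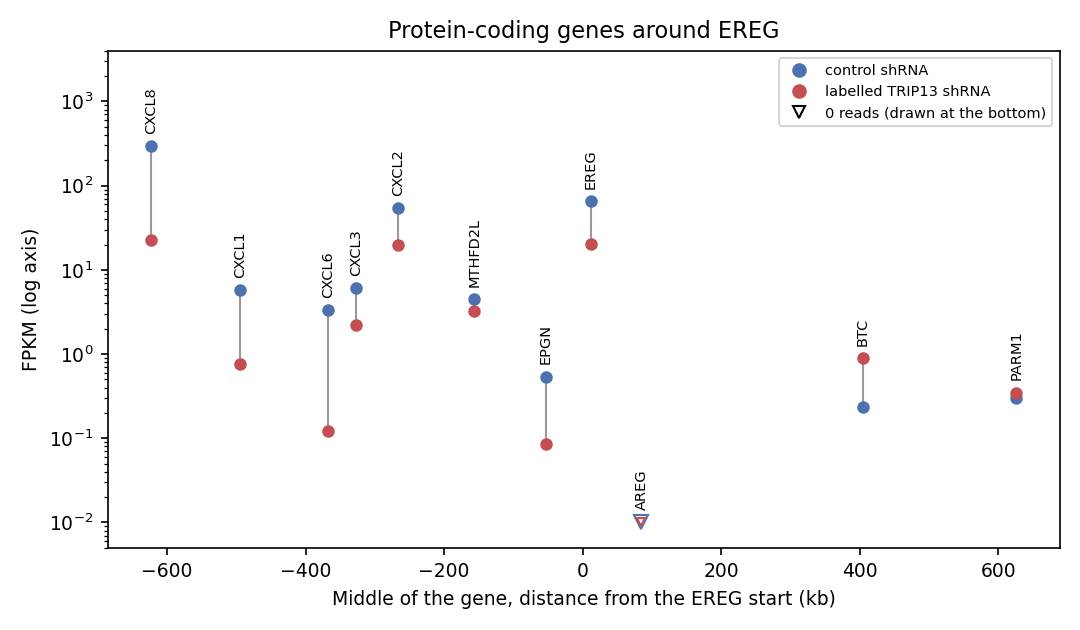
FPKM on a log axis of protein-coding genes around EREG, placed by the distance of the middle of each gene from the EREG start in kb, in the control library (blue) and the library labelled TRIP13 shRNA (red). Triangles at the bottom mark 0 reads, and 4 chemokine-family genes with at most 1 read are not drawn. The red points of the CXCL genes and EREG lie below the blue ones, and those of BTC and PARM1 above. The counting interval of the PARM1 ratio, 0.693 to 1.99, included 1.

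HBEGF, a ligand of EGFR and ERBB4 that also binds heparan sulphate, was lower in the library labelled TRIP13 shRNA. The gene (ENSG00000113070, chromosome 5, 140332843 to 140346631, minus strand) had 6.15 FPKM there and 10.8 FPKM in the control library, with 360 and 630 reads. The ratio was 0.571 (0.501 to 0.651) and the log2 ratio -0.72. TGFA, a ligand of EGFR (ENSG00000163235, chromosome 2, 70447280 to 70554193, minus strand), had the smallest difference of the 7 genes. It stood at 2.89 FPKM in the library labelled TRIP13 shRNA (278 reads) against 3.48 FPKM in the control library (335 reads), with a ratio of 0.830 (0.705 to 0.976) and a log2 ratio of -0.20. As 25.0% of all genes compared had a lower log2 ratio than TGFA, its place among them was not unusual.

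NRG1, the neuregulin that binds ERBB3 and ERBB4 (ENSG00000157168, chromosome 8, 31639386 to 32767959, plus strand), was also lower in the library labelled TRIP13 shRNA. It had 2.77 FPKM there (609 reads) and 4.76 FPKM in the control library (1045 reads), a ratio of 0.583 (0.526 to 0.645) and a log2 ratio of -0.61. NRG2, the related neuregulin and the 1 of 6 other EGF-family ligand genes above the filter, stood at 1.76 and 3.06 FPKM, a ratio of 0.575 (0.468 to 0.703). Both neuregulins thus had nearly the same ratio. EGF itself had 45 and 66 reads, and the interval of its ratio, 0.456 to 1.01, included 1. NRG3 (3 and 5 reads) and NRG4 (9 and 3 reads) were near 0.

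Summed over the 7 ligand genes of EGFR (EREG, AREG, HBEGF, TGFA, EGF, BTC and EPGN), the level was 80.9 FPKM in the control library but 30.8 FPKM in the library labelled TRIP13 shRNA. EREG made up 80.7% of the former sum and 66.2% of the latter. Without EREG the sums were 15.6 FPKM in the control library and 10.4 FPKM in the other. EREG was thus the larger part of the sum in both libraries.

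PDGFC was the 1 ligand gene higher in the library labelled TRIP13 shRNA. It encodes a PDGF that is secreted in a latent form and binds PDGF receptor alpha once its CUB domain is cut off, and it lies on chromosome 4 (ENSG00000145431, 156760454 to 156971394, minus strand). Its level was 11.5 FPKM there and 7.85 FPKM in the control library, with 1251 and 851 reads. The ratio was 1.47 (1.35 to 1.61) and the log2 ratio 0.50. This difference was not large among all genes compared, of which 17.1% had a higher log2 ratio.

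PDGFA, whose dimers bind PDGF receptor alpha (ENSG00000197461, chromosome 7, 497258 to 520296, minus strand), went the other way, with 2.47 FPKM in the library labelled TRIP13 shRNA (199 reads) against 4.04 FPKM in the control library (325 reads). It had a ratio of 0.612 (0.511 to 0.733) and a log2 ratio of -0.54. The counting intervals of PDGFA and PDGFC did not overlap. PDGFB, which binds both PDGF receptors (ENSG00000100311, chromosome 22, 39223359 to 39244751, minus strand), had 1 read in the control library and 0 in the other. PDGFD, a ligand of PDGF receptor beta (ENSG00000170962, chromosome 11, 103907186 to 104164379, minus strand), had 2 reads in the control library and 0 in the other. Both are under 3 reads, which would be 0.0412 FPKM for PDGFB and 0.0363 FPKM for PDGFD, and no ratio is given. Over the 4 PDGF genes the sum was 11.9 FPKM in the control library, of which PDGFC made up 65.8%, and 14.0 FPKM in the other, of which it made up 82.3%.

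HGF, the ligand of MET, was the other ligand gene past the 2-fold rule, and it too was lower in the library labelled TRIP13 shRNA. The gene (ENSG00000019991, chromosome 7, 81699008 to 81770438, minus strand) had 3.53 FPKM there and 9.98 FPKM in the control library, with 672 and 1899 reads. HGF was 2.83-fold higher in the control library (2.59 to 3.09), with a log2 ratio of -1.28. A lower log2 ratio was found for 2.38% of the genes compared. With a pseudocount of 5 in place of 1 the log2 ratio of HGF was -0.81, which is not past the 2-fold rule.

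HGF is typically made by mesenchymal cells, so the markers of fibroblasts and pericytes are given beside it. Of 8 such markers 5 passed the filter, and 2 of them, PDGFRB and LUM, passed the 2-fold rule downward, beside 4.19% of all genes compared. CSPG4, a pericyte marker, went the other way with 2966 and 2091 reads, a log2 ratio of 0.47. The 8 markers summed to 53.1 and 68.1 FPKM, and none was at 0 reads. COL1A1, the collagen gene with the highest level of the 8, stood at 27.4 and 29.4 FPKM, while DCN had 33 and 386 reads. The part of these markers in the result was not tested. Both libraries came from the same established glioblastoma cell line, so these values do not count fibroblasts or pericytes. In bulk RNA, fewer cells of the line expressing a gene and less of its RNA per cell cannot be told apart.

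The order of the 10 genes by level differed between the libraries below EREG. In the control library EREG was followed by HBEGF, HGF, PDGFC, NRG1, PDGFA and TGFA. There the counting intervals of neighbours overlapped for HBEGF and HGF, for NRG1 and PDGFA, and for PDGFA and TGFA. In the library labelled TRIP13 shRNA the order was EREG, PDGFC, HBEGF, HGF, TGFA, NRG1 and PDGFA, and the intervals of TGFA and NRG1 and of NRG1 and PDGFA overlapped. PDGFC thus came after HBEGF and HGF in the control library and before both in the other. EREG was 6.06 times the next gene in the control library and 1.77 times the next gene in the library labelled TRIP13 shRNA. These orders rest on merged exon lengths, such as 11328 bases over 22 transcripts for NRG1 and 3018 over 3 for HBEGF. The counting intervals do not cover an error in those lengths.

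**Figure D3:**
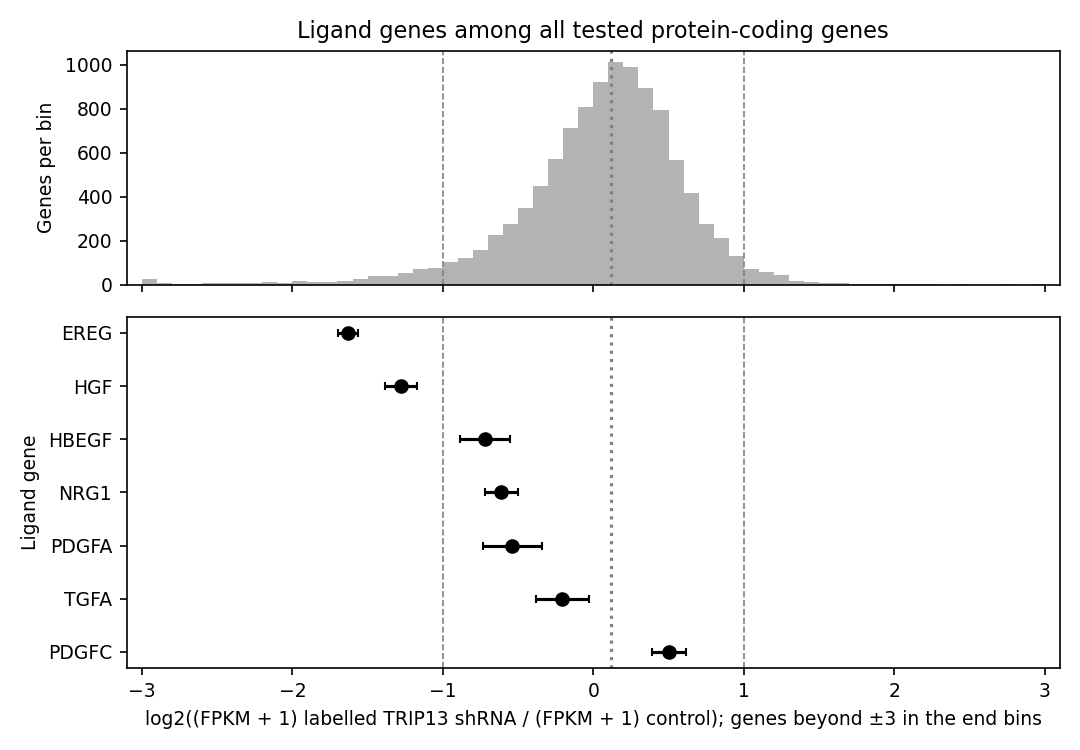
Log2 ratios of all 10671 genes compared (upper panel, genes per bin) and of the 7 ligand genes above the filter with their 95% counting intervals (lower panel). Dashed lines mark the 2-fold rule and the dotted line the median of all genes, 0.12. EREG and HGF lie left of the dashed line at -1, and PDGFC is the 1 point right of 0.

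Among the receptors, MET and EGFR were the most abundant in both libraries. MET, the HGF receptor, had 55.1 and 48.4 FPKM, a ratio of 1.14 (1.10 to 1.18). EGFR had 13.8 and 16.8 FPKM, a ratio of 0.824 (0.787 to 0.863). ERBB2, the ERBB family member without a ligand of its own, stood at 0.905 and 0.795 FPKM, and its ratio was not distinguishable from 1 at this depth (0.915 to 1.42). The neuregulin receptors were nearly without reads, with 4 and 19 for ERBB3 and 3 and 4 for ERBB4.

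Both PDGF receptors had fewer reads in the library labelled TRIP13 shRNA. PDGFRB had 1.74 and 12.4 FPKM, 7.10-fold higher in the control library (6.20 to 8.16). It was the 1 of 3 receptors above the filter at least 2-fold lower, beside 4.19% of all genes compared. PDGFRA, the receptor bound by PDGFA and PDGFC, had 3 and 97 reads, a ratio of 0.0309 (0.00627 to 0.0931). Its level was below 1 FPKM in both libraries.

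Of 8 genes for proteins that bind these ligands at the cell surface, all above the filter, 0 were at least 2-fold higher or lower, and the median log2 ratio was -0.10. The lowest log2 ratios were those of NRP2, a neuropilin (36.1 and 64.1 FPKM), and LRP1, an endocytic receptor that interacts with PDGF receptor beta (83.3 and 121.8 FPKM). Lower log2 ratios than that of NRP2, -0.81, were found for 6.13% of all genes compared. The highest were those of the heparan sulphate proteoglycans GPC1 (15.6 and 8.43 FPKM) and SDC1 (48.7 and 31.7 FPKM), and 5.16% of all genes compared had a higher log2 ratio than GPC1, 0.81.

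Genes for release and activation of the ligands went both ways. Of 17 genes 12 passed the filter, with a median log2 ratio of -0.17. Of these 12, 3 passed the 2-fold rule downward and 1 upward, beside 4.19% and 2.17% of all genes compared. ADAM8 was lower in the library labelled TRIP13 shRNA at 1.96 and 11.7 FPKM. So was RHBDF1, an inactive rhomboid protein that helps ADAM17 mature, at 4.06 and 11.4 FPKM. PLAT, the tissue plasminogen activator, which can cleave latent PDGFC, had 86 and 334 reads, and was named after its value was seen. ADAM12, a protease known to shed HBEGF, was on the upper side at 29.2 and 11.8 FPKM, a ratio of 2.48 (2.36 to 2.61).

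PLAU, the urokinase, which can activate PDGFD, had 130.8 and 88.5 FPKM, a log2 ratio of 0.56. PLAU and PLAT can also activate pro-HGF. Of the other pro-HGF proteases in the list, HGFAC had 7 and 0 reads, ST14 3 and 14 reads and HPN 0 reads in both libraries, and these 3 were named after their values were seen. Among 5 inhibitors of such enzymes 2 passed the filter. TIMP3, which inhibits ADAM17, was 6.10-fold higher in the control library (5.25 to 7.12), at 2.24 and 13.7 FPKM.

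Downstream of the receptors, of 16 adaptor and RAS pathway genes 0 were at least 2-fold higher or lower, and the median was 0.01. HRAS (32.8 and 20.5 FPKM) and PLCG1 (18.3 and 13.3 FPKM) had the highest log2 ratios, and GAB2 (1.69 and 3.08 FPKM) and MAPK3 (16.7 and 24.3 FPKM) the lowest. Of 14 genes of receptor feedback and turnover, 0 passed the 2-fold rule and the median was -0.25. The feedback inhibitor SPRY2 had 33.8 and 67.6 FPKM with a log2 ratio of -0.98, and the ubiquitin ligase CBLB had 2.14 and 4.35 FPKM. The phosphatases PTPRJ (5.91 and 4.62 FPKM) and PTPN1 (44.2 and 41.1 FPKM) were at the upper end.

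Of 14 ERK-response genes, 5 passed the 2-fold rule downward and 0 upward, beside 4.19% and 2.17% of all genes compared. Of the 14 log2 ratios 11 were below 0 and 3 above, beside 39.6% below 0 over all genes compared. The median was -0.81. DUSP6, an ERK phosphatase, and FOS had the lowest log2 ratios, -2.73 and -2.18, and the other 3, named after their values were seen, were EPHA2, IER3 and DUSP5. CCND1, cyclin D1, went the other way at 274.7 and 141.6 FPKM, as did FOSL1 with a log2 ratio of 0.88.

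Of 4 other growth factor genes related to PDGF or HGF that were above the filter 0 passed the 2-fold rule, and the median was -0.36. VEGFA, the angiogenic relative of the PDGFs, had 64.8 and 84.5 FPKM, and VEGFC, a lymphatic growth factor, had 17.6 and 22.5 FPKM. VEGFB had 59.2 and 55.3 FPKM. MST1, the HGF-like ligand of the receptor RON, had 121 and 201 reads.

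**Figure D4:**
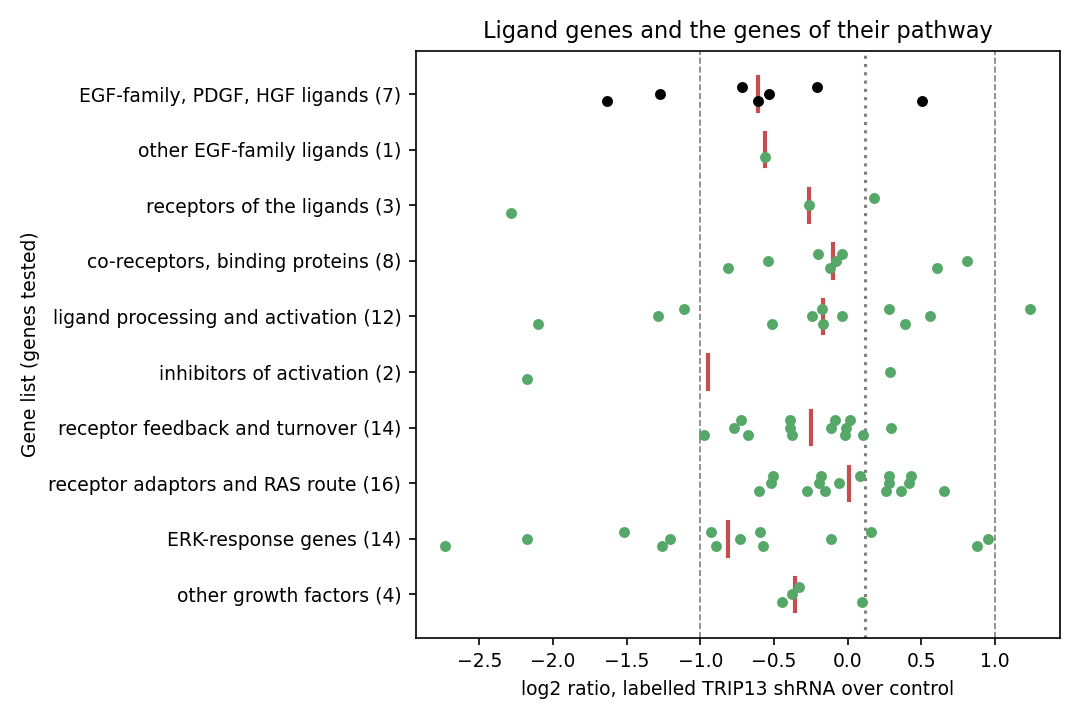
Log2 ratios of the ligand genes (black) and of the genes of their pathway (green) above the filter, by list, with the number of genes in brackets. Red bars are list medians, dashed lines the 2-fold rule and the dotted line the median of all genes. The ligand genes and the ERK-response genes have medians of -0.61 and -0.81, while the median of the 16 adaptor genes is 0.01.

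The deposited FPKM values carry no correction for the difference in depth. Of the genes past the 2-fold rule 34.2% were higher in the library labelled TRIP13 shRNA (232 higher and 447 lower). After rescaling to TPM this share was 22.5% (277 higher and 956 lower among 12183 genes above the filter), and 19.6% were higher once the control library was scaled to a median ratio of 1 (142 higher and 582 lower among 10742 genes). Those scalings shifted the median of all genes by -0.12 each. EREG, HGF, HBEGF, NRG1, PDGFA and TGFA had log2 ratios below 0 and PDGFC above 0 under TPM, the median ratio of 1 and division by own totals. As these scalings lower every ratio, only the sign of PDGFC could have turned under them. The other alternatives, a changed pseudocount or filter, cannot turn the sign of a log2 ratio.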

How the data were processed

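Total RNA libraries were made with the NEBNext Ultra kit, per the labels' protocols. The authors deposited FPKM values for 58735 genes. Per the submitters' processing notes, build hg38, edgeR, featureCounts 1.5.0-p3 and HISAT2 2.0.5 were involved, with no role or setting stated. The sources used here do not state the annotation or strand setting. Gene lengths and positions of the 10 ligand genes equal those of GENCODE release 29. Of them only PDGFD shares exon sequence with another gene (4.52%, with DDI1).

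FPKM times gene length gave whole reads for 100% of the values, within 0.01 of a read, with 1 step for both libraries (depth ratio 1.055). A ratio of FPKM is therefore a ratio of reads without correction for depth. With 1 library per group no test was run. The calculations were tested on simulated data.

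The ligand genes and the lists were chosen with earlier results of these data known. Named were the ligand genes, TRIP13, all receptors and up to 2 genes at each end of the other lists, plus genes said to be chosen later. One gene that this rule names is not reported here. The 7 alternatives were a pseudocount of 0.1 or of 5, a filter at a mean FPKM of 5 or none, TPM, a median ratio of 1 and division by own totals. Calculations used scipy 1.17.1, pandas 2.3.3 and numpy 2.4.6 under Python 3.11.15, and figures matplotlib 3.10.9.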

Additional observations from a re-analysis of the deposited data

How the results depend on the processing

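No paired analysis was possible because there is only 1 library for each condition. EREG and HGF were both at least 2-fold lower except with a pseudocount of 5, where the count fell to 1 and HGF had a log2 ratio of -0.81. No alternative gave a ligand gene at least 2-fold higher. The median log2 ratio of the ligand genes was -0.76 with a pseudocount of 0.1, -0.33 with a pseudocount of 5, -0.37 without a filter (10 genes), -0.998 when a mean FPKM of 5 was required (4 genes) and -0.83 after rescaling to TPM. The larger pseudocount shrinks each ratio by construction, and the filters change which genes enter. Of 46 alternative values of the 7 ligand genes 28 stayed inside the counting interval and 18 did not, and 0 turned direction. The filters leave the value of a kept gene as it was, so those values stayed inside by construction. Neither a filter nor a pseudocount can turn a direction. Only TPM, the median ratio of 1 and own totals could have done so, and only for PDGFC. These scalings lower every ratio, so a ligand gene already below 0 could not turn. Over all genes 232 were at least 2-fold higher and 447 lower. These counts were 408 and 677 with a pseudocount of 0.1, and 64 and 180 with 5. After rescaling to TPM 277 genes were higher and 956 lower, and higher genes numbered 142 with the median ratio set to 1 and 178 with own totals. For AREG, PDGFB and PDGFD the depth allows no ratio.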

Other observations

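The nearest genes above the filter on either side of each of the 7 ligand genes were read as well, a look chosen after the data were seen. Their distances from the ligand gene ran from 28.9 kb beside PDGFA to 1090 kb beside EREG. Of these 14 neighbours 3 had a log2 ratio of the same sign as their ligand gene. Over all genes compared, 39.6% had a log2 ratio below 0. Among the neighbours 0 were at least 2-fold lower and 1 was at least 2-fold higher, beside 4.19% and 2.17% of all genes compared. That gene was FAM136A, a mitochondrial protein gene beside TGFA, at 37.4 FPKM in the library labelled TRIP13 shRNA and 17.7 FPKM in the control library. On the HGF side, the axon guidance gene SEMA3C stood at 9.18 and 11.7 FPKM and the calcium channel subunit gene CACNA2D1 at 3.93 and 2.55 FPKM. Beside PDGFA, the kinase gene FAM20C had 28.3 and 16.5 FPKM and PRKAR1B, a regulatory subunit gene of protein kinase A, 3.33 and 1.60 FPKM, both opposite in direction to PDGFA. These values are given with no explanation.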
